A study of Mus musculus with 4 samples.

Results

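Endothelial cells are a small class among the cells that a dissociated mouse islet yields, and they were selected on their own measured transcripts in 4 single-cell libraries. A barcode was kept with 200 to 4000 detected genes and at most 12% of mitochondrial UMIs (unique molecular identifiers, each standing for 1 captured transcript). It was called endothelial when it held UMIs of at least 3 of the 7 genes Pecam1, Plvap, Flt1, Kdr, Cd34, Esam and Cdh5. Ins1 and Ins2 together had to stay under 2% of its UMIs, Gcg, Sst and Ppy each under 1%, and fewer than 2 of 4 mesenchymal genes (Col1a1, Col1a2, Col3a1, Pdgfrb) and fewer than 2 of 3 macrophage genes (C1qa, C1qb, Tyrobp) could be detected. Of 7471 kept barcodes, 109 met this rule.

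The islets came from adult male C57BL/6 mice (C57BL6/J in the methods of the study) and were pooled over several animals before they were divided. Intact islets were left untreated or were exposed ex vivo for 6 hours to human recombinant IL-1β (IL-1B in the sample labels), to mouse IFN-γ (IFNg), or to both, and were then dissociated and captured in droplets with the 10x Genomics 3′ method. Each condition gave 1 library, so no difference between conditions has a replicate check, no test was made, and the intervals given are exact 95% intervals that cover counting error only. The treatments acted on whole islets, so a response of the endothelial cells to the added cytokine and a response to what neighboring islet cells released within the 6 hours cannot be told apart.

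Wherever 4 values follow each other, the untreated library comes first, then IL-1β, IFN-γ and the combination. Endothelial cells numbered 26, 30, 38 and 15. They were 1.71% (1.12 to 2.49), 1.49% (1.01 to 2.12), 1.79% (1.27 to 2.45) and 0.829% (0.465 to 1.36) of the kept barcodes. The share was lowest with both cytokines, where its interval still met that of each other library. Barcodes with at least 3 markers that other limits left out, counted below, were spread unevenly over the libraries. The endothelial cells held 165600, 119007, 210912 and 124682 UMIs in sum, and 5328.5, 3480, 3926.5 and 8747 UMIs at the median. The IL-1β cells were thus the shallowest and the combined cells the deepest. Levels below are UMIs of a gene summed over the endothelial cells of a library, per 1000000 of their UMIs (CPM), and 3 UMIs, the floor used for a count of 0, a one-sided limit a little under the two-sided bounds drawn in the plots, correspond to 18.1, 25.2, 14.2 and 24.1 CPM.

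Islet capillaries are lined by a thin endothelium with fenestrations, small pores closed by a diaphragm that the protein of Plvap builds, and they are kept in this state by vascular endothelial growth factor from the endocrine cells, which acts through the receptor encoded by Kdr. IFN-γ binds a receptor of the Ifngr1 and Ifngr2 chains, and the kinases Jak1 and Jak2 then activate STAT factors, among whose early targets is Irf1, itself a transcription factor. Interferon-induced genes include guanylate-binding GTPases, antigen presentation by MHC class I, and the chemokines Cxcl9 and Cxcl10, which draw T cells that carry the receptor Cxcr3. IL-1β binds Il1r1 with its partner chain Il1rap and activates NF-κB, which in endothelium is best known for turning on the leukocyte adhesion molecules Icam1, Vcam1 and Sele.

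The first check was whether the selected cells carried endothelial genes that had played no part in the selection. The median cell held UMIs of 17 of 28 such genes, with 7 in the lowest cell and 23 in the highest, against a median of 0 in 4549 β cells (cells with at least 10% of insulin UMIs, little other hormone and fewer than 2 endothelial markers). Egfl7, a secreted protein of blood vessel cells, stood at 2808, 1849, 1688 and 1235 CPM. Emcn, a surface sialomucin of capillaries and veins, stood at 2494, 1739, 972 and 545 CPM, and Gpihbp1, which anchors lipoprotein lipase to capillaries, at 1105, 1521, 1009.9 and 1299 CPM. In β cells none of Egfl7, Emcn and Gpihbp1 passed 1.57 CPM in any library. All 7 genes of the rule were found in 74 of the 109 cells, 6 in 23, 5 in 7, 4 in 3 and 3 in 2. The rule fixes the counts of its own genes, so the label was checked on the outside genes alone.

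The cells near the limits of the rule were counted without a test. Inside it, the 5 cells with only 3 or 4 markers held a median of 9 of the 28 other endothelial genes. Just outside, 2 cells with 2 markers held a median of 5 and 32 cells with 1 marker a median of 1. A further 20 barcodes (3, 3, 7 and 7) with at least 3 markers were left out for 2 or more mesenchymal genes. Another 6 (0, 3, 0 and 3) were left out for their hormone content, and each of these sets held a median of 15.5. The limit of 4000 genes removed 14 barcodes (6, 1, 2 and 5) that met every other condition, with a median of 20. The barcodes over the gene limit came mostly from the untreated and combined libraries. In the combined library, 7, 3 and 5 barcodes were left out for mesenchymal genes, hormones and the gene limit, beside 15 cells kept. The part of these exclusions in its low endothelial share was not tested.

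Genes of other cell types were counted next, of which the rule itself caps the hormone, macrophage and collagen genes. The 11 macrophage genes summed to 5, 1, 1 and 0 UMIs, and the 7 lymphatic genes to 37, 27, 25 and 17. Among the latter, Flt4, a VEGF receptor, made up 37, 26, 22 and 17 UMIs and Prox1, the lymphatic master regulator, 0, 1, 3 and 0, while Lyve1 and Pdpn had none. The 6 venous genes summed to 13, 27, 24 and 9 UMIs and the 9 cycling genes to 12, 8, 7 and 5. In the IL-1β library 14 of the 27 venous UMIs were Selp, the adhesion molecule P-selectin, and all 14 lay in 1 cell. The 13 acinar genes summed to 36, 10, 15 and 2 UMIs and the 10 ductal genes to 26, 3, 4 and 7, with 18 of the 26 from Spp1. Hormone genes were the largest foreign signal, at 7089, 1941, 3803 and 1548 CPM, highest in untreated cells, close to the 6000, 1645, 3443 and 1523 CPM of macrophages in the same libraries. The 11 mesenchymal genes summed to 38, 16, 60 and 61 UMIs (229, 134, 284 and 489 CPM), with Acta2 leading in untreated cells and Rgs5, a gene of pericytes, in the others. The parts that hormone RNA, mural transcripts and depth have in the differences below were not tested, and their values are given beside the results. Of the barcodes called in 2 libraries, 16 over all pairs, none was endothelial.

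**Figure D1:**
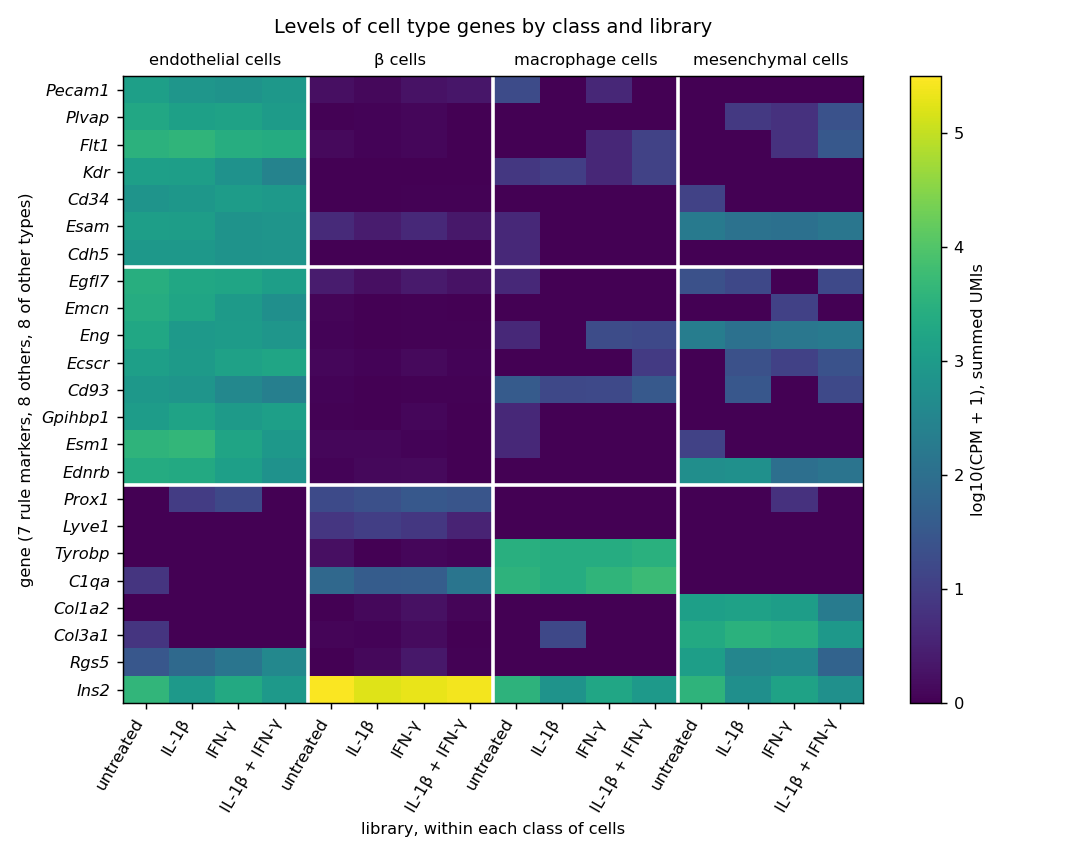
Summed levels of 23 cell type genes (rows) as log10(CPM + 1), in endothelial, β, macrophage and mesenchymal cells (column blocks), each with its 4 libraries. The 7 rule markers and 8 further endothelial genes are bright in the endothelial block and near 0 in the β block, while Tyrobp and C1qa are dark in endothelial cells and Ins2 is lower there than in β cells.

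Each cytokine condition was then set against the untreated library, which all 3 comparisons share. A gene was counted as higher or lower when log2 of (CPM + 10) differed by at least 1, among genes with at least 20 UMIs over the pair. With IL-1β, 140 of 2961 such genes were higher and 167 lower (4.73% and 5.64%). With IFN-γ, 346 of 3676 were higher and 290 lower (9.41% and 7.89%), and with both cytokines 282 of 2950 were higher and 359 lower (9.56% and 12.2%). The balance with IFN-γ was not stable: 274 were higher and 299 lower without barcodes that held mural transcripts, and 339 and 340 without the maximum of 4000 genes. These shares are the background against which the gene lists below are read. The median log2 ratio over all genes counted was 0.00 for IL-1β, -0.11 for IFN-γ and -0.18 for the combination. When totals were scaled so that this median lay near 0, 394 genes were higher and 222 lower with IFN-γ, and 357 higher and 270 lower with both, so that the side with more genes changed in the combined comparison (44.0% higher against 56.9% after scaling). A gene that is silent without cytokine reaches 20 UMIs only where it is high, so the counts over lists of inducible genes describe the genes detected and nothing more.

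STAT and IRF factors of the IFN-γ pathway were mostly higher with IFN-γ, alone or combined. Among the genes ranked, the largest ratios of both comparisons were those of Cxcl10, Cxcl9 and Gbp2, given below. Among 10 STAT and IRF factors, 9 reached 20 UMIs with IFN-γ and 8 of these were higher, with a median log2 ratio of 2.88 (all genes -0.11), and with both cytokines 6 of 7 were higher (median 2.89, all genes -0.18). With IL-1β alone none of 4 was higher or lower (median 0.31, all genes 0.00). Irf1 stood at 60.4, 33.6, 915 and 1155 CPM, 15.2-fold higher (8.06 to 32.1) with IFN-γ and 19.1-fold higher (10.1 to 40.7) with both. Irf8, better known from myeloid cells, stood at 72.5, 101, 597 and 602 CPM, 8.24-fold higher (4.56 to 16.4) and 8.30-fold higher (4.48 to 16.8). In both genes the untreated and IL-1β libraries lay low and close together, and the IFN-γ and combined libraries lay high. Macrophages had 399, 373, 1640.1 and 1564 CPM of Irf8, and of the macrophage genes that the rule did not use, Lyz2, Adgre1, Cd68 and Csf1r had 2 UMIs at most in any endothelial library. Of 8 feedback inhibitors, 3 of 5 detected genes were higher with IFN-γ and 2 of 4 with both (medians 1.28 and 1.25). Socs1, which blocks the Jak kinases, had 1, 1, 82 and 51 UMIs, and Socs3, a relative of it, 20, 12, 65 and 46 UMIs.

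The guanylate-binding proteins (GBP) and immunity-related GTPases (IRG), which act inside the cell against vacuolar microbes, were silent or nearly so without IFN-γ. None of the 15 genes on this list reached 20 UMIs over the untreated and IL-1β libraries. With IFN-γ 12 of 12 detected genes were higher (median log2 ratio 5.04) and with both cytokines 10 of 10 (median 5.70). Gbp2 (chromosome 3, 142620602 to 142638008, plus strand, mm10) had 2, 8, 1761 and 1183 UMIs, or 12.1, 67.2, 8349 and 9488 CPM. It was 691-fold higher (191 to 5713) with IFN-γ and 786-fold higher (217 to 6495) with both, wide intervals that come from the 2 untreated UMIs. Its UMIs were found in 2 of 26, 4 of 30, 38 of 38 and 15 of 15 cells, and the share stayed at 2, 4, 35 and 15 of 26, 21, 35 and 15 cells when each cell was thinned to 2500 UMIs. Per cell, the lowest, median and highest values with IFN-γ were 4.84, 78.2 and 146 UMIs per 10000, and with both 50.7, 90.9 and 141. Every cell of these 2 libraries thus held at least 1 UMI, where 84.8% of β cells held one with IFN-γ and 90.9% with both. Free RNA in the ratio of β cells, scaled by Ins2, would give 1.78 and 0.842 Gbp2 UMIs over all cells of the IFN-γ and combined libraries, and free RNA of other sources was not measured. Iigp1 had 2, 5, 1113 and 602 UMIs, Igtp 0, 1, 361 and 170 and Gbp4 0, 5, 385 and 208. Igtp and Gbp4 had no untreated UMI and were at least 94.5-fold higher and at least 101-fold higher with IFN-γ, against the limit of 3 UMIs per library. Gbp5, which had no untreated UMI, stood at 0, 16.8, 654 and 618 CPM, and Ifi47 at 12.1, 50.4, 811 and 946 CPM. F830016B08Rik, an uncharacterized locus that also ranked among the top genes, had 0, 0, 92 and 72 UMIs. GBP and IRG genes lie in clusters of close copies, and reads that match several copies could be lost or split by the authors' counting.

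The promoters of Gbp2, Gbp5, Irf1, Cxcl9 and Cxcl10 are shown because these induced genes hold letters that IRF, STAT and NF-κB proteins are known to bind. The windows of Ifi47, Cd274, Tap1 and Cx3cl1, also higher with IFN-γ, held none of the 3 motifs. The windows run from 250 bases before to 50 bases after the RefSeq start (GRCm38.p6), 5′ to 3′ on the strand of the gene. Capitals mark matches on either strand to the interferon-stimulated response element (ISRE, searched as GAAA, 2 bases of any kind, GAAA), the gamma-activated site (GAS, searched as TTCNNNGAA) or the κB site (searched as GGG, 2 bases of any kind, TT, 1 base of any kind, CC). The matches shown do not overlap each other. Over 32851 promoters of 27025 genes, 3.44% held the ISRE letters, 8.30% the GAS letters and 4.79% the κB letters.

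The 2 GTPase promoters, of Gbp2 (chr3:142620413-142620712, plus strand) and Gbp5 (chr3:142496684-142496983, plus strand), and that of Irf1 (chr11:53769764-53770063, plus strand), read as follows.
Gbp2: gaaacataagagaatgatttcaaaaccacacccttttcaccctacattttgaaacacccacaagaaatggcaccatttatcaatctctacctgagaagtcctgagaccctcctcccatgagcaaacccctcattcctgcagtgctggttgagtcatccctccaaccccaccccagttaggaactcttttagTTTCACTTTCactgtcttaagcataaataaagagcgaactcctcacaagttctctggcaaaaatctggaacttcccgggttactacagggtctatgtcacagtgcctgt
Gbp5: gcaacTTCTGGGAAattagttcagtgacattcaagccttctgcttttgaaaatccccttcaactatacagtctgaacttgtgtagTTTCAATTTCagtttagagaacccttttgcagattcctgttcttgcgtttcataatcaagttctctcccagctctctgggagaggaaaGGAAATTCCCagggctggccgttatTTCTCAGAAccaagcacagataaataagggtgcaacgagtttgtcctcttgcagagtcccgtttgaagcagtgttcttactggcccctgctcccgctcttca
Irf1: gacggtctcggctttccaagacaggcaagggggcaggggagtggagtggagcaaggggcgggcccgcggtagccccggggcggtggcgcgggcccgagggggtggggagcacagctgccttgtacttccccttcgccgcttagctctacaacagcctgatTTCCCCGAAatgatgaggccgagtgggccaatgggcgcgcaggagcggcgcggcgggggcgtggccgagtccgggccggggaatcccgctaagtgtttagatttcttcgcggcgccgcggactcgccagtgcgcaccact

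In Gbp2 the capitals are 1 ISRE match, which begins 59 bases before the start. Gbp5 holds an ISRE match at 165 bases, GAS matches at 245 and 52 bases and a κB match at 77 bases before the start. Irf1 holds a GAS match at 90 bases, while the window at a second Irf1 start holds none. Over the GBP and IRG list, 9 of 11 promoters (10 of the 15 genes had an entry) held the ISRE letters, 6 the GAS letters and 1 the κB letters. In the STAT and IRF list, 4 of 11 promoters (8 genes had an entry) held the GAS letters, 2 the ISRE letters and 1 the κB letters. In the antiviral list, 11 of 20 promoters (17 genes had an entry) held the ISRE letters, 6 the GAS letters and 1 the κB letters. In the MHC class I list, 7 of 19 promoters (17 genes had an entry) held the κB letters, 5 the ISRE letters and 2 the GAS letters. Of the 19 promoters found for 14 of the 28 other endothelial genes, none held any of the 3 motifs. A match describes the letters of the window and does not show a bound factor. Variants of the 3 motifs were not searched, so a window without a match may still hold a site.

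Chemokines were the second group to separate the libraries. Cxcl10 and Cxcl9, which attract Cxcr3-bearing T cells, had no UMI in 26 untreated and 30 IL-1β cells. Cxcl10 (chromosome 5, 92346638 to 92348889, minus strand) had 0, 0, 1888 and 1871 UMIs, which are 0, 0, 8952 and 15006 CPM, and was at least 494-fold higher with IFN-γ and at least 828-fold higher with both. Cxcl9 (chromosome 5, 92321347 to 92328079, minus strand) had 0, 0, 690 and 804 UMIs, which are 0, 0, 3272 and 6448 CPM, and was at least 181-fold higher and at least 356-fold higher. Between the 2 libraries with IFN-γ, the combined one was 1.68-fold higher (1.57 to 1.79) in Cxcl10 and 1.97-fold higher (1.78 to 2.19) in Cxcl9. Both intervals lie above 1, but they cover counting error only and not the spread between cells or libraries. Of the Cxcl9 UMIs in the combined library, 31% came from 1 cell. Without the barcodes that held mural transcripts, the IFN-γ and combined values were 8184 and 10467 CPM for Cxcl10 and 1951 and 6458 CPM for Cxcl9. β cells of the same libraries had 0, 0, 1.95 and 198 CPM of Cxcl9, and 1.02% of them held a UMI of it with IFN-γ at a median depth of 11369 UMIs, against 24 of 38 endothelial cells at 3926.5.

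The promoters of both chemokine genes, Cxcl9 (chr5:92328030-92328329, minus strand) and Cxcl10 (chr5:92348840-92349139, minus strand), are shown with the same marking.
Cxcl9: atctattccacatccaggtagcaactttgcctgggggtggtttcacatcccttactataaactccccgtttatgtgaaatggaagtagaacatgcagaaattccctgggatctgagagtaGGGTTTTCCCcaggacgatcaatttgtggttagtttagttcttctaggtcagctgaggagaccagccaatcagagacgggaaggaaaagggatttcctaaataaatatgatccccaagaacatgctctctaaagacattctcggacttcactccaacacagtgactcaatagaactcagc
Cxcl10: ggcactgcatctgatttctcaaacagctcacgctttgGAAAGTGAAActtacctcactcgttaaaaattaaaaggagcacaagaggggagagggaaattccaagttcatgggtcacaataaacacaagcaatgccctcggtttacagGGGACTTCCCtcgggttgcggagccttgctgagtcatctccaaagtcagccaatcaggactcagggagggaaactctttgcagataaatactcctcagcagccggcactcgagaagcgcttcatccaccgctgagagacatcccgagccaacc
Cxcl9 holds a κB match that begins 130 bases before the start, and Cxcl10 holds a κB match at 103 bases and an ISRE match at 213 bases.

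The 2 chemokines differed in how many cells carried them. With IFN-γ, Cxcl10 was found in 32 and Cxcl9 in 24 of 38 cells: 23 cells held both, 9 only Cxcl10, 1 only Cxcl9 and 5 neither. With both cytokines, 12 of 15 cells held both, 2 only Cxcl10 and 1 only Cxcl9. The lowest, median and highest Cxcl10 values per cell were 0, 52.6 and 469 UMIs per 10000 with IFN-γ and 0, 137 and 269 with both. At least 100 Cxcl10 UMIs per 10000 were reached in 13 of 38 and 11 of 15 cells. The IFN-γ cells with and without Cxcl10 had median depths of 3926.5 and 3815.5 UMIs, and in the combined library the 14 cells with it had 9559 and the 1 cell without it 3355. Cell to cell, the chemokines thus ranged from none to very high within 1 library, whereas each of these cells held a UMI of Gbp2.

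**Figure D2:**
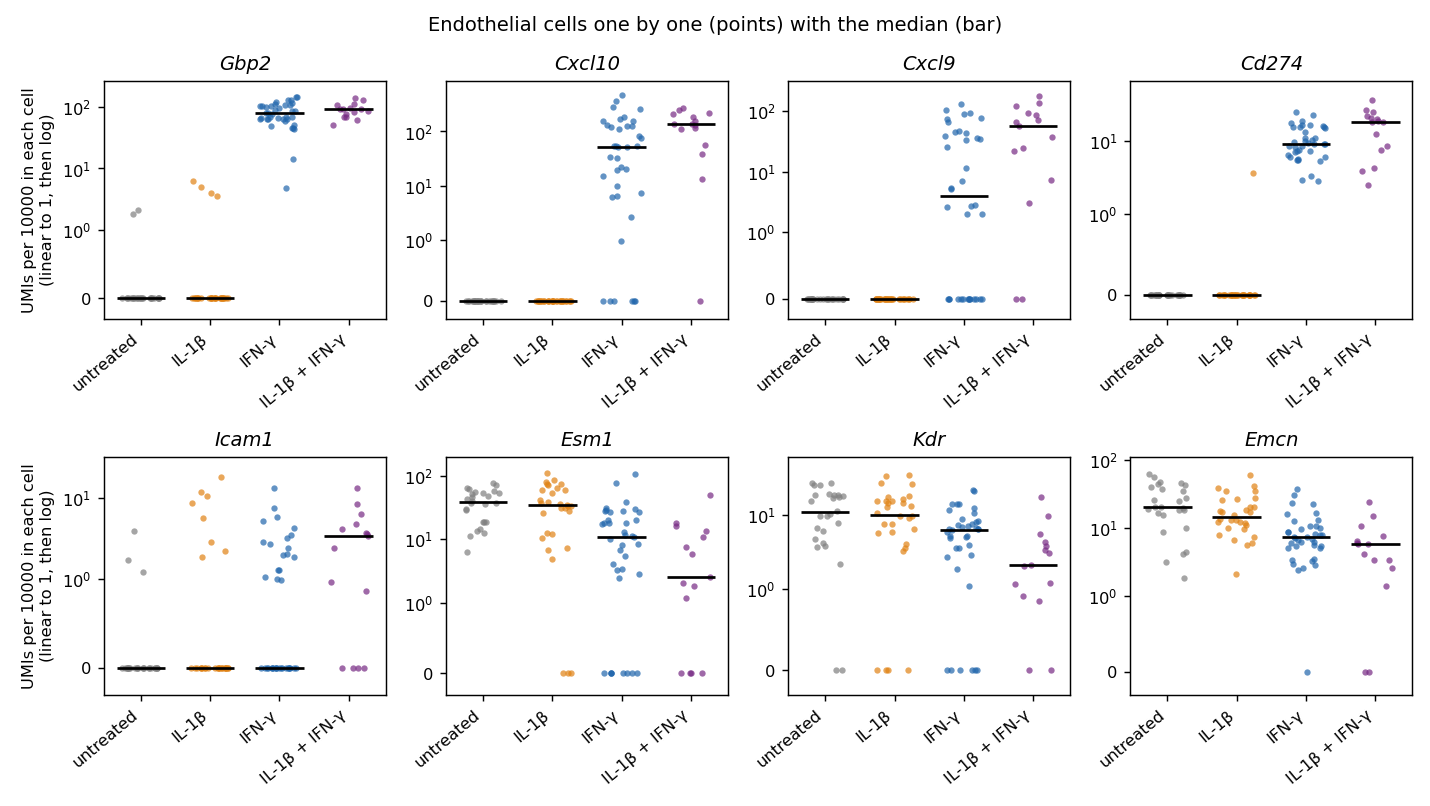
UMIs per 10000 of 8 genes in each endothelial cell (points, with the median as a bar) by library, on an axis that is linear to 1 and logarithmic above. Every cell with IFN-γ or both cytokines holds a UMI of Gbp2 and Cd274, Cxcl10 and Cxcl9 range from 0 upward, and Esm1, Kdr and Emcn lie lower in the combined library than in the untreated one at the median.

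Other chemokines were weaker. Cx3cl1, the membrane-bound chemokine fractalkine, had 6, 6, 74 and 58 UMIs, or 36.2, 50.4, 351 and 465 CPM, and was 9.68-fold higher (4.24 to 27.2) with IFN-γ and 12.8-fold higher (5.55 to 36.4) with both. In β cells it did not pass 2.92 CPM. Cxcl16, a second membrane-bound chemokine, stood at 60.4, 176, 142 and 273 CPM and was 2.92-fold higher (1.32 to 6.95) with IL-1β, 2.36-fold higher (1.12 to 5.40) with IFN-γ and 4.52-fold higher (2.18 to 10.2) when combined. All 3 treated libraries were thus above the untreated one in Cxcl16, and only the 2 with IFN-γ in Cx3cl1 beyond the counting intervals. Over the 13 chemokines in the files, 2 of 3 detected genes were higher with IL-1β (Ccl2, Cxcl16), all 4 with IFN-γ, and all 7 when combined. Ccl2, Ccl7 and Cxcl1, which make up the difference, are taken up below with the mural transcripts.

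MHC class I, which shows intracellular peptides to CD8 T cells, was higher in most of its detected genes in the libraries with IFN-γ. Of 20 genes on the list, 16 of 19 detected were higher with IFN-γ (median log2 ratio 2.03) and 17 of 18 with both (median 2.49), and none was lower. With IL-1β none of 9 was higher or lower (median 0.44). For peptide supply, the immunoproteasome subunit Psmb8 stood at 54.3, 118, 1109 and 1363 CPM, 20.4-fold higher (10.6 to 45.2) and 25.1-fold higher (12.9 to 55.8). The peptide transporter Tap1 had 1, 2, 119 and 80 UMIs. The light chain B2m stood at 1624, 1723, 3883 and 3994 CPM, 2.39-fold higher (2.08 to 2.75) and 2.46-fold higher (2.12 to 2.86). Of the heavy chains, H2-K1 stood at 1141, 1773, 2684 and 3930.0 CPM, H2-D1 at 1806, 1319, 2622 and 3617 CPM and the non-classical H2-T23 at 109, 151, 1062 and 1019 CPM. H2-T23 differed most of the 3 and H2-D1 was 1.45-fold higher (1.26 to 1.68) with IFN-γ, short of the limit. MHC heavy chain genes resemble each other closely, so their separate levels are uncertain. Nlrc5, the activator of MHC class I genes, had 0, 0, 9 and 10 UMIs, whereas its class II counterpart Ciita had 0, 0, 1 and 0. The 7 MHC class II genes summed to 0, 0, 3 and 0 UMIs, and Cd74 had none in any of the 4 libraries.

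Cd274 (chromosome 19, 29367455 to 29388095, plus strand), which encodes the T cell inhibitor PD-L1, had 0, 1, 223 and 180 UMIs, or 0, 8.40, 1057 and 1444 CPM. It was at least 58.4-fold higher with IFN-γ and at least 79.7-fold higher with both. It was found in 38 of 38 and 15 of 15 cells of these libraries, against 0 of 26 and 1 of 30. After thinning to 2500 UMIs it was found in 32 of 35 and 15 of 15. Free RNA in the ratio of β cells would give 0.517 and 0.117 Cd274 UMIs over all cells of these libraries, and 82.0% and 83.4% of β cells held one. Lgals9, a lectin that can dampen T cells, stood at 18.1, 50.4, 403 and 553 CPM. Over the 10 checkpoint and costimulation genes, 2 of 3 detected were higher with IFN-γ and 3 of 3 with both, of which Cd40 dropped under the limit when barcodes with mural transcripts were left out. Among secreted factors, Il15, which sustains CD8 T and NK cells, stood at 6.04, 33.6, 194 and 249 CPM, and the death ligand Tnfsf10 at 24.2, 58.8, 441 and 321 CPM.

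Of the antiviral effectors, 14 of 15 detected genes were higher with IFN-γ (median log2 ratio 3.03) and 12 of 13 with both (median 3.72). With IL-1β none of 3 was (median 0.46). Ifitm1, among those higher with IFN-γ and with both, had no UMI in any library without barcodes that held mural transcripts. Ifitm3, a membrane protein that blocks virus entry, stood at 1522, 2336, 6865 and 11469 CPM, 4.51-fold higher (3.94 to 5.18) with IFN-γ and 7.54-fold higher (6.59 to 8.65) with both. Isg15, a ubiquitin-like modifier, stood at 60.4, 25.2, 564 and 1323 CPM and was 2.35-fold higher (1.84 to 2.99) in the combined than in the IFN-γ library. Rsad2, which makes an antiviral nucleotide, had 0, 4, 74 and 71 UMIs. Among 16 apoptosis genes, Casp8, an initiator caspase, was higher and Bax, which permeabilizes mitochondria, lower of 5 detected with IL-1β, and 3 of 7 were higher and 1 lower with IFN-γ. Casp4, a sensor of cytosolic lipopolysaccharide, and Casp8 were higher with IFN-γ and with both, while Cflar (0.53) and Bax (-0.98) with IFN-γ were under the limit without the maximum of 4000 genes.

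**Figure D3:**
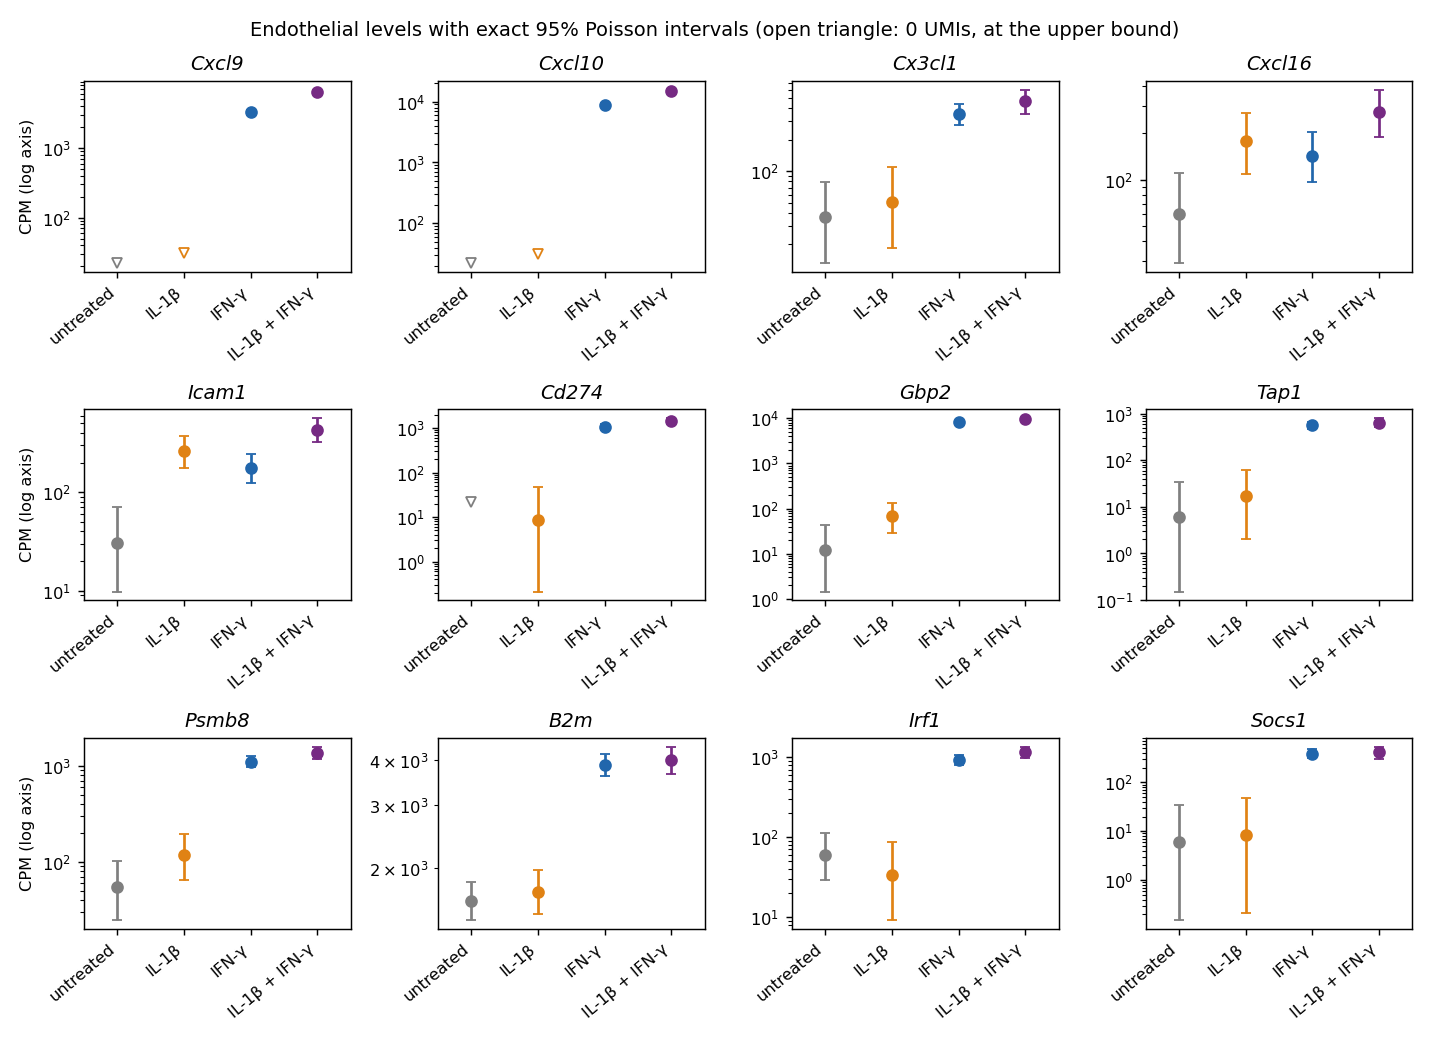
CPM of 12 genes in the endothelial cells of each library (points) with exact 95% Poisson intervals (bars) on a log axis, with open triangles at the upper bound where no UMI was found. Cxcl9 and Cxcl10 have no UMI without IFN-γ, Psmb8 and B2m start from a measurable untreated level, and Icam1 and Cxcl16 are also above the untreated value with IL-1β.

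Some genes of sprouting and growth factor reception were lower in the libraries with IFN-γ. Of 8 genes of tip cells, which lead vessel sprouts, 5 of 6 detected were lower with IFN-γ (median log2 ratio -1.21) and 3 of 7 with both (median -1.0), against 0 of 7 with IL-1β (median 0.29). Esm1 (chromosome 13, 113209659 to 113218098, plus strand), a secreted proteoglycan that growth factor signaling turns on, had 611, 518, 340 and 106 UMIs, or 3689.6, 4353, 1612 and 850.2 CPM. It was 2.29-fold lower (2.0 to 2.62) with IFN-γ and 4.34-fold lower (3.53 to 5.39) with both. Per cell, its median was 38.7 UMIs per 10000 in untreated and 2.54 in combined cells, with ranges of 6.37 to 78.1 and 0 to 50.7, so that the libraries overlapped cell by cell and 24.5% of the combined UMIs lay in 1 cell. Kcne3, a potassium channel subunit of tip cells, had 35, 31, 16 and 2 UMIs. Pgf, a ligand of Flt1, was the exception, at 54.3, 168, 28.4 and 152 CPM, although its log2 ratio with both was 0.73 without the maximum of 4000 genes. Of the 5 lower with IFN-γ, Cxcr4 (log2 ratio -0.83), Nid2 (-0.68) and Pdgfb (-0.93) were under the limit without that maximum, which leaves Esm1 and Kcne3, and Pdgfb (-0.96) was also under it with both.

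Among 15 genes of VEGF and angiopoietin signaling, some of which are also on the tip cell list, 1 of 11 detected was higher and 4 lower with IFN-γ (median log2 ratio -0.57), and 1 higher and 5 lower with both (median -0.67), while with IL-1β 1 was higher and none lower (median 0.06). Flt4, 1 of the 4 lower with IFN-γ, was under the limit (-0.87) without the maximum of 4000 genes. Kdr (chromosome 5, 75932827 to 75978458, minus strand), the main signaling receptor, helped to select the cells, so its level is a description only. It stood at 1244, 1227, 645 and 281 CPM, which was 1.93-fold lower (1.55 to 2.41) with IFN-γ and 4.43-fold lower (3.09 to 6.54) with both. At least 3 of the 6 other markers chose the same 26, 30, 38 and 15 cells, so leaving Kdr out of the rule gave the same levels. The decoy receptor Flt1, also of the rule, stood at 3448, 3958, 2712 and 2454 CPM, and Nrp1, a co-receptor of Kdr that was not part of the rule, at 936, 471, 408 and 217 CPM. Tek, the angiopoietin receptor, had 20, 15, 7 and 4 UMIs, and its ligand Angpt2 stood at 417, 706, 640.1 and 465 CPM. Kdr and Nrp1 were lowest with both cytokines, whereas Flt1 and Angpt2 moved by less than 2-fold between untreated and combined cells. Tek had too few UMIs to order the IFN-γ and combined libraries.

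Of the 28 further endothelial genes, 1 of 23 detected was higher and 4 lower with IFN-γ (median log2 ratio -0.40), and 0 of 22 higher and 8 lower with both (median -0.50), while with IL-1β 2 of 22 were higher and none lower (median -0.08). Cyyr1, higher with IL-1β and with IFN-γ, was under the limit in both (0.52 and 0.90) without the maximum of 4000 genes, and (0.85 and 0.99) without barcodes that held mural transcripts, where Ptprb with both (-0.78) was too. Emcn (chromosome 3, 137341067 to 137432185, plus strand) stood at 2494, 1739, 972 and 545 CPM, 2.57-fold lower (2.17 to 3.05) with IFN-γ and 4.57-fold lower (3.53 to 6.00) with both. Cd93, a C-type lectin of vessels, stood at 845, 748, 360.3 and 241 CPM. Ednrb, the endothelin B receptor of the vascular tone list, stood at 2379, 2168, 1280.2 and 626 CPM, 3.80-fold lower (2.98 to 4.91) with both. Cd300lg, a receptor of capillary cells that is also called nepmucin, had 40, 14, 4 and 1 UMIs, and Fabp4, a fatty acid carrier of capillaries, stood at 4891, 6084, 1934 and 2478 CPM. Fabp4 was lowest with IFN-γ alone, and Cd300lg with both. Other endothelial genes did not follow. Icam2, an adhesion molecule that resting endothelium carries, stood at 205, 151, 379 and 321 CPM, Ecscr, a surface regulator of endothelial migration, at 1244, 992, 1427 and 1708 CPM, and Gja4, a gap junction protein of arterial cells, at 54.3, 84.0, 156 and 377 CPM, 6.94-fold higher (3.36 to 16.1) with both. Gja4 rests on the gene limit: without the maximum of 4000 genes its log2 ratio was 0.03 with IFN-γ and 0.79 with both, against 1.37 and 2.59 with it. The 10 genes of caveolae and fenestrations had 7 detected members and none past 2-fold in any comparison (medians -0.18, -0.16 and 0.08).

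Notch and TGF-β family signaling, which sets arterial fate and quiescence, had 15 of 18 genes detected. None was higher in any comparison, and those lower numbered 1, 2 and 7 in the IL-1β, IFN-γ and combined comparisons, with medians of 0.03, -0.44 and -0.75. Both genes lower with IFN-γ, Dll1 (-0.96) and Notch4 (-0.90), and Id2 with both (-0.55) were under the limit without the maximum of 4000 genes. Without barcodes that held mural transcripts, 3 of the 7 lower with both were under it, Bmpr2 (-0.99), Hey1 (-0.96) and Id2 (-0.23). Id1, a target of BMP signaling, stood at 1509.7, 1361, 896 and 618 CPM, and Eng, a co-receptor of that pathway, at 1884, 949.5, 1062 and 770.0 CPM. Hey1, a Notch target, stood at 242, 269, 175 and 48.1 CPM, but 83% of its UMIs in the combined library came from 1 cell. Of 15 basement membrane genes, 11 were detected and 0, 3 and 4 of them were lower, none higher (medians -0.50, -0.74 and -0.61). Without the maximum of 4000 genes, Lama4 (-0.67) and Nid2 (-0.68) with IFN-γ, 2 of the 3, and Lama4 with both (-0.92) were under the limit. Without barcodes that held mural transcripts, Nid1 (-0.82) and Lama4 (-0.97) with both were under it, 2 of the 4. The genes at the bottom of the ranking were often few in UMIs. Mest, an imprinted gene of growing tissue, had 42, 1, 0 and 1 UMIs, but 60% of the untreated ones lay in 1 cell. Tbxa2r, the thromboxane receptor, had 22, 1, 2 and 0 UMIs, Sncg, a synuclein found in endothelium, 22, 1, 10 and 0, Lmcd1 25, 15, 9 and 0, Limch1 25, 21, 2 and 2 and the serine protease gene Prss23 53, 43, 7 and 8. Limch1 and Prss23 were low only in the libraries with IFN-γ, whereas Tbxa2r was low in all 3 treated libraries.

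**Figure D4:**
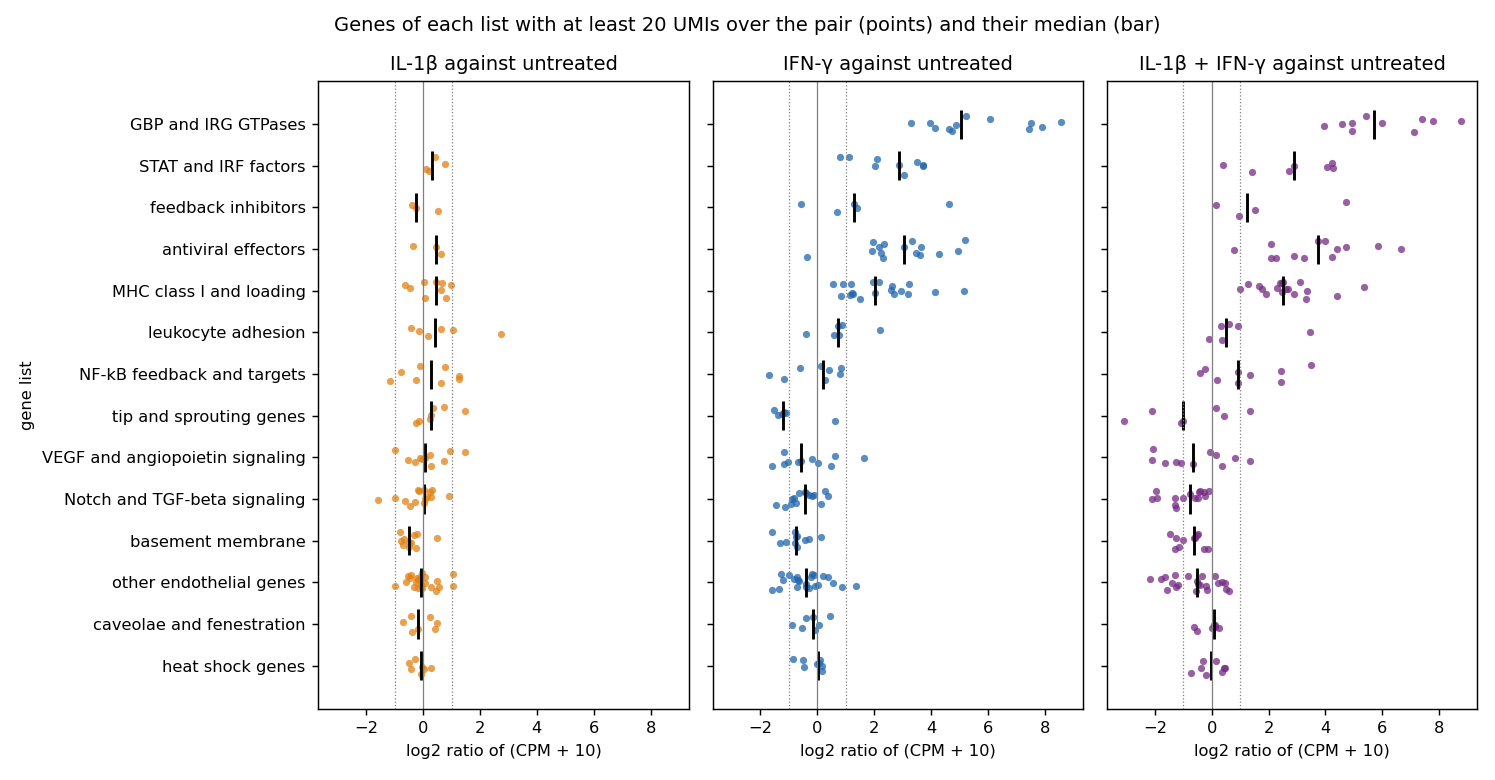
log2 ratios of (CPM + 10) of each treated library against the untreated one (panels) for the genes of 14 lists (rows) with at least 20 UMIs over the pair, with the list median as a bar and dotted lines at 2-fold. The interferon lists lie far to the right with IFN-γ and with both cytokines, their few detected members lie within 2-fold with IL-1β, and the median of tip and sprouting genes lies left of 0 in both comparisons that had IFN-γ.

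IL-1β alone gave smaller shares of genes past 2-fold (4.73% higher and 5.64% lower) than IFN-γ alone (9.41% and 7.89%). Icam1 (chromosome 9, 21015985 to 21028817, plus strand), the ligand by which leukocytes adhere, had 5, 31, 37 and 54 UMIs, or 30.2, 260.5, 175 and 433 CPM, and was 8.63-fold higher (3.33 to 28.4) in the IL-1β, 5.81-fold higher (2.28 to 18.9) in the IFN-γ and 14.3-fold higher (5.78 to 46.0) in the combined library. It was found in 3 of 26, 8 of 30, 18 of 38 and 11 of 15 cells, so IL-1β left it undetected in most cells at this depth. The log2 ratio of Icam1 with both was 3.46, and 4.92 without the maximum of 4000 genes. Of 12 leukocyte adhesion genes, 2 of 6 detected were higher with IL-1β (median log2 ratio 0.41), and 1 of 6 in either library with IFN-γ (medians 0.74 and 0.49). Beside Icam1, the other gene with IL-1β was the junction protein Jam2, which was under the limit (0.77) without the maximum of 4000 genes. Vcam1 and Sele, the other classical adhesion targets, stayed near 0: Sele had no UMI, and the 5 Vcam1 UMIs of the IL-1β library lay in the same cell as its Selp UMIs. The 300-base window of Icam1 held a GAS match at 42 bases before the start and no match to the κB letters searched. Variants of these letters were not searched, so this does not show that the window lacks a κB site.

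Of 20 NF-κB feedback and target genes, 17 had a promoter entry, and 9 of their 20 windows (45.0%) held the κB letters. Among the genes of this list, 2 of 8 detected were higher and 1 lower with IL-1β (median log2 ratio 0.27). With IFN-γ 0 were higher and 2 lower (0.20), and with both 4 of 9 were higher (0.94). Nfkbia, the inhibitor that NF-κB itself induces, stood at 713, 1210.0, 782 and 1371 CPM, 1.70-fold higher (1.32 to 2.18) with IL-1β and 1.92-fold higher (1.51 to 2.45) with both. In β cells Nfkbia stood at 48.4, 486, 49.2 and 621 CPM. Nfkb1, a subunit precursor, stood at 109, 277, 199 and 289 CPM, and Tnip1, which restrains the pathway, at 54.3, 143, 75.9 and 337 CPM. Cebpd and Cebpb, transcription factors of the acute phase response, stood at 24.2, 185, 137 and 642 CPM and 133, 420.1, 251 and 425 CPM. Cebpd was 7.65-fold higher (2.60 to 30.6) with IL-1β and 26.6-fold higher (9.98 to 99.9) with both, and β cells had it at 57.2, 917, 97.7 and 655 CPM. With Mt1, a metallothionein, these were the 3 detected genes of the 10 acute phase and metallothionein genes, all 3 higher with IL-1β, Cebpd alone with IFN-γ, and Cebpb and Cebpd when combined. Tnip1 with IL-1β and Cebpb with both were under the limit without barcodes that held mural transcripts. Rela, an NF-κB subunit and the 1 gene lower with IL-1β, was under the limit (-0.80) without the maximum of 4000 genes and (-0.94) without barcodes that held mural transcripts. Without the maximum of 4000 genes, Cebpd and Cebpb with IL-1β had log2 ratios of 0.86 and 0.32, under the limit, against 2.51 and 1.59 with it, Cebpd with IFN-γ had 0.43, also under it, against 2.11, Cebpb with both had 0.33, and Cebpd with both had 2.60 against 4.25.

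A fibrinolysis gene was where IL-1β and IFN-γ went apart. Plat, the tissue plasminogen activator, stood at 459, 1017, 256 and 433 CPM, 2.22-fold higher (1.65 to 2.99) with IL-1β and 1.79-fold lower (1.25 to 2.59) with IFN-γ. The combined library lay between the IL-1β and the IFN-γ library, but Plat with IL-1β was under the limit of 2-fold without barcodes that held mural transcripts and, with a log2 ratio of 0.83, without the maximum of 4000 genes. Plaur, the urokinase receptor, stood at 314, 193, 322 and 770.0 CPM and was highest with both, where its log2 ratio without the maximum of 4000 genes was 0.94. Over the 14 coagulation and fibrinolysis genes, 2 of 6 detected were higher with IL-1β, none was past the limit with IFN-γ, and 1 was higher and 2 lower with both (medians -0.15, -0.73 and -0.10). Fos, an immediate early factor, had 3, 22, 22 and 7 UMIs and, among genes found in at least 5 cells, the largest ratio with IL-1β, 10.2-fold higher (3.07 to 53.3), which without the maximum of 4000 genes was 1.77 on the log2 scale against 2.79, but 59% of its UMIs with IFN-γ lay in 1 cell and the list of 15 such genes did not move with it (1 of 10 detected higher, median -0.09). The other genes that ranked highest with IL-1β had few UMIs. Among them were Egln1, an oxygen-sensing hydroxylase, with 6, 30, 31 and 10 UMIs, the ubiquitin ligase scaffold Cul3 with 7, 30, 33 and 14, the homeobox gene Meox1 with 5, 18, 5 and 6, Ypel2 with 5, 18, 9 and 8 and Fam133b with 3, 19, 20 and 15. Tshz2, a zinc finger gene, had 19, 51, 132 and 75 UMIs and was higher in all 3 treated libraries, and Hist1h2bc had 12, 33, 8 and 5, of which 70% with IL-1β lay in 1 cell. Lower with IL-1β, beside Mest, Sncg and Tbxa2r, were the chaperone partner Fkbp4 with 19, 2, 13 and 6 UMIs and Prkag1, a subunit of the energy sensor AMPK, with 18, 2, 10 and 7. Fkbp4 with IL-1β had a log2 ratio of -0.79 without the maximum of 4000 genes.

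Ccl2, Ccl7, Cxcl1, Il6 and Il11, secreted factors most abundant with both cytokines, went with transcripts of mural cells. Mural cells are the pericytes and smooth muscle cells that wrap capillaries. Ccl2, a monocyte chemokine, had 0, 35, 4 and 87 UMIs, Cxcl1, a neutrophil chemokine, 0, 3, 4 and 55, and the cytokine Il6 0, 0, 1 and 23. Ccl2 was thus also past 2-fold with IL-1β alone, where all 35 UMIs lay in 1 cell. Il11, a relative of Il6, had 1, 4, 0 and 51 UMIs and Ccl7 0, 3, 0 and 22. At least 3 of the 6 genes Cxcl1, Ccl2, Ccl7, Il6, Ifitm1 and Il11 were found together in 0, 1, 0 and 4 cells. All 5 of these cells held UMIs of the mural genes Pdgfrb, Rgs5, Acta2, Cspg4 or Notch3, which were found in 2, 4, 8 and 5 cells in all. In the combined library the 4 cells carried all 55 Cxcl1, 87 Ccl2 and 23 Il6 UMIs and 43 of its 45 Rgs5 UMIs. When barcodes with a mural UMI were left out, an alternative chosen after seeing the data that kept 24, 26, 30 and 10 cells, Ccl2, Ccl7, Il6, Ifitm1 and Il11 had no UMI in any library and Cxcl1 had 0, 1, 2 and 0. Mesenchymal cells of the same libraries had 314, 15281, 906 and 10898 CPM of Ccl2 and 22.4, 2991, 141 and 2449 CPM of Il6. In the same 10 combined cells Cxcl10 stood at 10467 CPM and Cxcl9 at 6458, Gbp2 at 9131 and Cd274 at 1829. Icam1 stood at 13.9, 192, 225 and 464 CPM, Esm1 at 3714, 4335, 1734 and 985 CPM and Kdr at 1324, 1205, 695 and 366 CPM without these barcodes, each in the order of libraries seen with all cells except that Icam1 was higher with IFN-γ than with IL-1β. Without the maximum of 4000 genes, Il11 with both cytokines had a log2 ratio of 0.98, and Ccl2 had 1.26 with IL-1β and 3.29 with both.

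The endothelial response was last set beside that of β cells, the main cells of these islets, which numbered 1149, 1010, 1179 and 1211. The IFN-γ receptor chains stood at 115, 159.7, 90.1 and 104 CPM for Ifngr1 and 127, 118, 71.1 and 40.1 CPM for Ifngr2 in endothelial cells, against 7.17, 26.1, 10.3 and 15.8 and 5.30, 58.5, 5.09 and 50.4 CPM in β cells. Il1r1, the IL-1 receptor, was lower in endothelial than in β cells of each library. It had 4, 1, 2 and 3 UMIs, or 24.2, 8.40, 9.48 and 24.1 CPM, in endothelial cells. In β cells it stood at 239, 242, 220.0 and 88.8 CPM. Il1rap had no UMI in endothelial cells and between 0.909 and 4.52 CPM in β cells. Over 18 genes of cytokine receptors and proximal signaling, 0 of 5 detected were past 2-fold with IL-1β, Jak2 alone of 7 was higher with IFN-γ, and Ifngr2 alone of 3 was lower with both.

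Nos2, the inducible nitric oxide synthase, had no UMI in any endothelial cell, which allows up to 25.2 CPM with IL-1β and 24.1 with both, whereas β cells had 0, 148, 2.55 and 648 CPM. The Nos2 that free RNA could carry into endothelial barcodes, scaled by their Ins2, was 0.813 CPM with IL-1β and 2.39 with both. Defb1, an antimicrobial peptide that β cells had at 24.5, 1008, 56.1 and 846 CPM, also had no UMI in endothelial cells. Sod2, the mitochondrial superoxide dismutase, stood at 163, 151, 199 and 930.4 CPM in endothelial and 99.0, 1035, 109.8 and 959 CPM in β cells. IL-1β alone thus went with a high level of Sod2 in β cells and not in endothelial cells, while the combined libraries were alike, but without the barcodes with mural UMIs the endothelial value with both was 549 CPM. For Cxcl10, endothelial cells had 0, 0, 8952 and 15006 CPM and β cells 2.17, 69.2, 76.1 and 2677, so that β cells were high only with both cytokines together and endothelial cells already with IFN-γ. The 13 chemokines summed to 169 CPM untreated and 12783 with IFN-γ alone in endothelial cells. They summed to 437 and 12542 CPM in mesenchymal cells, and to 5268 and 7221 CPM in macrophages. For Cd274 the β values were 4.60, 12.7, 238 and 254 CPM, for Gbp2 1.52, 298, 819 and 1830.4 CPM and for Icam1 0.253, 139.9, 3.52 and 401 CPM. Gbp2 had a clear level in β cells with IL-1β alone, where only 4 of 30 endothelial cells had a UMI of it, and Icam1 was low in β cells with IFN-γ alone, where 18 of 38 endothelial cells had one. With 1 library per condition these contrasts between cell types were not tested.

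**Figure D5:**
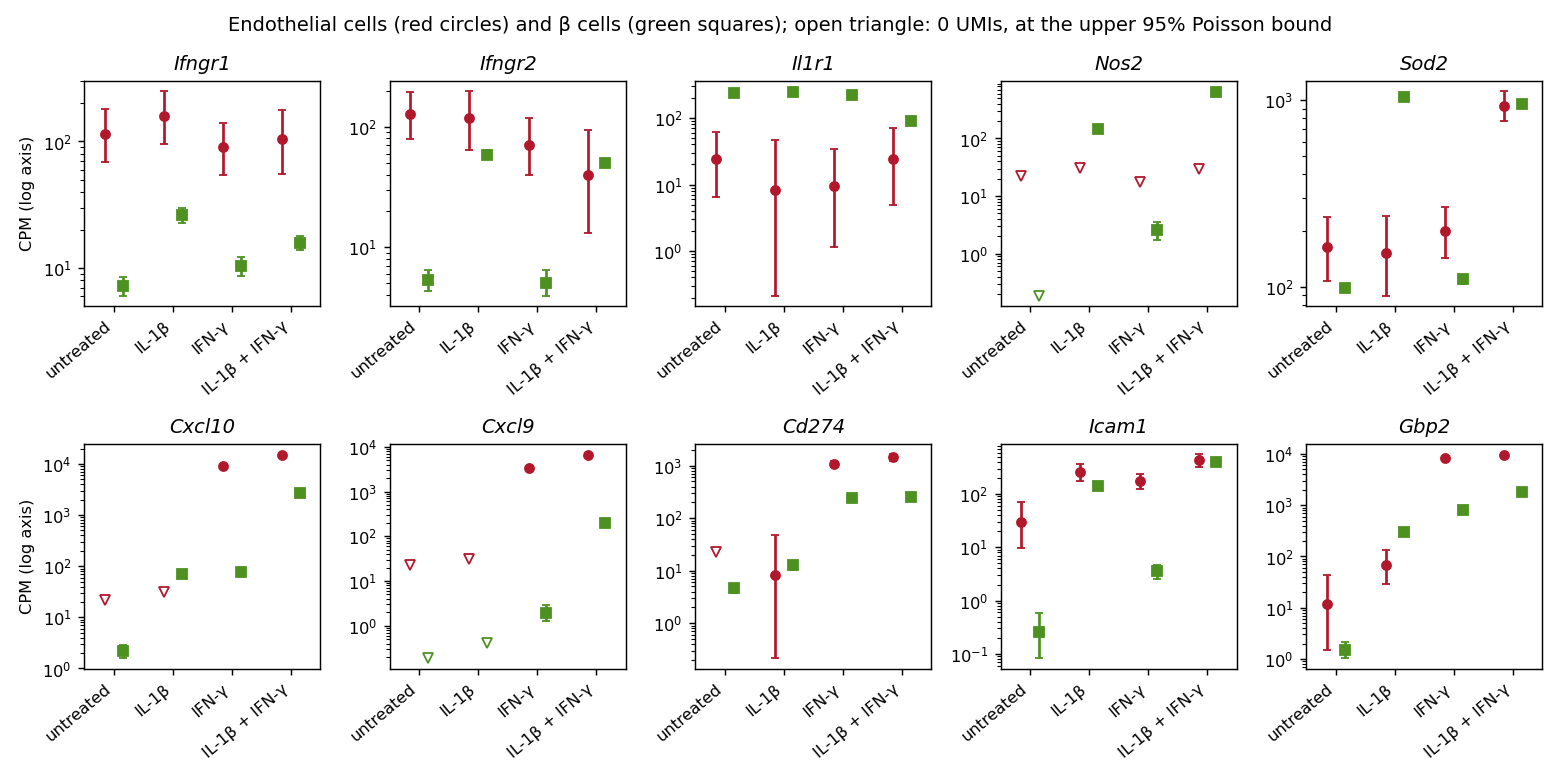
CPM of 10 genes in endothelial cells (red circles) and β cells (green squares) of each library on log axes, with exact 95% Poisson intervals and open triangles at the upper bound where no UMI was found. Ifngr1 is higher in endothelial cells and Il1r1 in β cells in all 4 libraries, Nos2 is found in β cells of the treated libraries only, and Cxcl10 is high in endothelial cells with IFN-γ alone.

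The remaining lists are given by their counts. Of 18 cytokines and growth factors, 1 of 3 detected was higher with IL-1β, 3 of 5 were higher and 1 lower with IFN-γ, and 5 of 7 were higher and 1 lower with both (medians 0.33, 1.49 and 3.28). Of the 5, Il6 and Il11 had no UMI without barcodes that held mural transcripts. Kitl, the ligand of the stem cell factor receptor, was higher in all 3 treated libraries at 54.3, 151, 171 and 217 CPM, and Pdgfb, which recruits pericytes, was lower in both libraries with IFN-γ at 314, 286, 128 and 144 CPM. Without the maximum of 4000 genes, Kitl with IL-1β (log2 ratio 0.97) and Pdgfb in both comparisons (-0.93 and -0.96) were under the limit. Of 8 arterial genes, 3, 4 and 4 were detected, with 0, 1 and 1 higher and 0, 0 and 1 lower. Gja4, the higher gene with IFN-γ and with both, was under the limit (0.03 and 0.79) without the maximum of 4000 genes. Hey1, the lower gene with both, was under it (-0.96) without barcodes that held mural transcripts. Of 11 lipid and water handling genes 5 were detected, and none was past the limit with IL-1β, 2 were lower with IFN-γ, and 1 in the combined library. Of the 10 heat shock genes, 7, 8 and 8 were detected and none was past 2-fold (medians -0.08, 0.02 and -0.03). Of 7 flow-responsive KLF and related genes, 5 were detected, with Klf2, a factor that laminar flow sustains, higher with IL-1β and IFN-γ and Klf6 with both. Klf2 with IL-1β was under the limit without barcodes that held mural transcripts, and without the maximum of 4000 genes. Klf2 stood at 133, 294, 375 and 128 CPM. Of 13 junction and polarity genes, 9, 10 and 9 were detected and 1, 1 and 1 were higher and 0, 0 and 1 lower. The higher genes were Jam2 with IL-1β and Gja4 with IFN-γ and with both. Without the maximum of 4000 genes each was under the limit (0.77, 0.03 and 0.79). Of 14 vascular tone genes, 1 was lower in each comparison, Ramp3 with IL-1β, Calcrl with IFN-γ and Ednrb with both, and of 14 nitric oxide genes only 1, 3 and 2 were detected, none of them past 2-fold. Without the maximum of 4000 genes, Calcrl with IFN-γ (-0.93) was under the limit. Immediate early genes had 1 higher and 3 lower members among 10 with IFN-γ, and none higher and 3 lower among 9 with both, with Dusp1, a phosphatase of the stress kinases, and Nr4a1, an orphan nuclear receptor, lower in both. The 1 higher gene with IFN-γ was Fos, which was under the limit (0.90) without the maximum of 4000 genes.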

How the data were processed

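The deposited values were UMI counts of 31053 genes by barcode, made by the authors with Cell Ranger on mm10 per the submitters' processing notes, with a software version of 3.0.0 per the file headers and no normalization. The count totals were 50731370, 20056630, 31209339 and 25716645 UMIs in the order of libraries used above, over 3486, 2911, 3694 and 2480 barcodes, of which 1521, 2018, 2122 and 1810 were kept. No column of samples outside the series was present. The reagent kit is given as version 2 in the labels and as a different version in the study's methods.

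The analysis ran in Python (3.11.15) with pandas (2.3.3), scipy (1.17.1), numpy (2.4.6) and, for plots, matplotlib (3.10.9). Cells were chosen by the stated rule, with no clustering and no doublet caller. UMIs were summed per library and divided by the cells' total. Levels have exact Poisson, shares exact Clopper-Pearson and ratios exact conditional binomial intervals at 95%. With 1 library per condition no test was made. A ratio against 0 UMIs used 3 UMIs per library, and per-cell shares were repeated after thinning to 2500 UMIs. The endothelial rule genes, the 38 gene lists (452 of 455 genes in the files) and the comparisons were chosen with earlier results of these data known. The genes named were the list genes and, in each treated library, the 10 highest and 5 lowest log2 ratios of (CPM + 10) among genes with at least 20 UMIs over the pair and UMIs in at least 5 cells where higher, without mitochondrial, rule, hormone and acinar genes. Some further list genes are not named, and some items are not reported here. Gene positions came from GENCODE M21 (30934 identifiers matched) and promoters from RefSeq GRCm38.p6. The ratio step was tested on simulated data with known fold changes. Alternatives were other cell limits, equal weight per cell, thinning, other pseudocounts and UMI minimums, totals without hormone, acinar and mitochondrial genes, median scaling and, added after seeing the data, no barcode with a mural UMI.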

Additional observations from a re-analysis of the deposited data

Results flagged for a closer look

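Among the list genes, a log2 ratio of opposite sign in endothelial and β cells of the same libraries, past 2-fold in both, was found for 3. The difference between the cell types was not tested. Dll1, a Notch ligand, had a log2 ratio of -1.58 with IL-1β in endothelial cells and 1.46 in β cells, and of -1.94 with both cytokines in endothelial cells and 1.11 in β cells, where the endothelial value was -1.26 without the maximum of 4000 genes. Id2, an inhibitor of basic helix-loop-helix factors, had -1.02 with both cytokines in endothelial cells and 1.09 in β cells, and was under 2-fold in endothelial cells without barcodes that held mural transcripts and, at -0.55, without that maximum. Ifngr2, the second chain of the IFN-γ receptor, had -1.45 with both cytokines in endothelial cells and 1.98 in β cells.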

How the results depend on the processing

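No paired analysis was possible because each condition had 1 library. The shares of endothelial cells stayed within their binomial intervals under each alternative run on them. The numbers of cells differed by at most 1.5 times, with 15 against 10 combined cells without barcodes that held mural transcripts. Of 277 gene ratios past 2-fold, 3458 of 3600 values under the 14 alternatives (13 planned, 1 added after seeing the data) stayed past 2-fold in the same direction, 141 kept the direction under 2-fold and 1 reversed: Spp1 with both cytokines was 5.41 on the log2 scale without the upper gene limit and -2.19 with it, and the cause was not tested. Part of this tally was fixed by construction and does not measure stability. The other UMI minimums change which genes are counted and not their ratios. The mitochondrial limit of 20% kept the same 26 untreated, 30 IL-1β and 15 combined cells. The tally also leaves out ratios that had no value under an alternative. Among these were Ccl2, Ccl7, Il6, Ifitm1 and Il11, which had no UMI without barcodes that held mural UMIs. Without those barcodes, Cyyr1, Ptprb, Hey1, Rela, Bmpr2, Id2, Lama4 and Nid1 were also under 2-fold in a comparison where they had been past it. The counts of genes past 2-fold moved most. Higher and lower genes numbered 82 and 75 with IL-1β, 208 and 156 with IFN-γ and 136 and 139 with both after thinning to 2500 UMIs, and 38 and 36, 162 and 94, and 134 and 103 with at least 50 UMIs. With every gene that had a UMI they were 864 and 1185, 884 and 1237, and 948 and 1862. With a pseudocount of 50 CPM they were 48 and 61 with IL-1β and 215 and 109 with IFN-γ, and 207 and 177 with both, where the side with more genes changed. Without the upper gene limit 258 were lower with IL-1β. Without that limit, the named or listed genes under 2-fold where they had been past it were Cyyr1, Jam2, Kitl, Rela, Plat, Klf2, Cebpd, Cebpb and Fkbp4 with IL-1β, Cyyr1, Gja4, Flt4, Cxcr4, Nid2, Pdgfb, Erap1, Calcrl, Notch4, Dll1, Lama4, Fos, Cebpd, Bax, Cflar, Ppy, Rgs5 and Sncg with IFN-γ, and Gja4, Pgf, Pdgfb, Il11, Cd40, Plaur, Id2, Lama4, Cebpb, Rgs5, Cul3 and Fkbp4 with both. Genes that moved by over 1.5 times and stayed past 2-fold included Kcne3, Icam1, Cxcl1, Ccl2, Ccl7, Cx3cl1, Il15, Kitl, Tnip1, Sod2, Sox18, Ptprb, Gbp7, Ifit1, Ifitm1, Ifitm3, Isg15, Rsad2, Psmb9, Erap1, Cd274, Ednrb, Dll1, Smad7, Nr4a1, Cebpd and Lmcd1 with both, Jak2, Rsad2 and Fam133b with IFN-γ, and Ccl2, Fos, Egln1 and Cul3 with IL-1β. Fewer UMIs or genes entered the thinned and 50-UMI counts by construction, and the cause of the other shifts was not tested. Depth limits genes of few UMIs: a gene with 0 UMIs may still stand at up to 25.2 CPM with IL-1β.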
